A study of Mus musculus with 15 samples.

Results

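The genes described here encode the proteins of the cytosolic ribosome. They were chosen by symbol: every gene whose name starts with Rpl or Rps followed by a number, with Rplp0, Rplp1 and Rplp2, and without Rpl14, rows named as pseudogenes (-ps), the Rps6k kinases and antisense names. The rule took 91 of 54532 genes in the forebrain count table and 84 of 32285 in the microglia matrices. Of the 91, 54 are Rpl or Rplp genes of the large subunit, 36 are Rps genes of the small subunit, and Rps19bp1 fits the rule by its letters but encodes a protein that binds RPS19, so it is counted and given apart. Among them 15 carry the name of a variant or copy of another member (such as Rpl22l1, Rpl36al or Rps27rt), and GENCODE M21 annotates 7 of these as processed pseudogenes although their names do not say so. The members lie on 19 chromosomes, with 15 on chromosome 7.

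The study deleted Atg7, which encodes the E1-like enzyme of autophagosome formation, in microglia. All mice were C57BL/6, carried the floxed allele ATG7FF, were given tamoxifen (1.5 mg) at the age of 2 months and were taken at 8 months, 6 months later. The forebrain groups were ATG7FF with 5xFAD (control, 6 libraries) and Cx3cr1CreER with ATG7FF and 5xFAD (cKO, 7 libraries). 5xFAD denotes transgenes of familial Alzheimer's disease that cause amyloid plaques. The microglia groups had no 5xFAD: sorted CD11b-positive, CD45-low cells were pooled from 3 forebrains of ATG7FF mice (control) or 4 forebrains of ATG7FF mice with Cx3cr1CreER (cKO), with 1 library each. The Cre is an inducible recombinase placed at the Cx3cr1 gene, active in microglia and other Cx3cr1-expressing cells, and the controls lacked it, so a Cre or knock-in effect and the Atg7 deletion cannot be told apart. Whether every forebrain library is from its own mouse is not stated in the labels, and the p-values below describe only how these 13 libraries spread.

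Each ribosome holds one copy of nearly every one of these proteins, and cells make them in matched amounts, since a protein without its partners is degraded. Their messenger RNAs start with a pyrimidine tract, the 5' terminal oligopyrimidine (TOP) motif, through which mTORC1 and the protein LARP1 control their translation together. Autophagy removes ribosomes in starved cells, a process called ribophagy, and microglia raise or lower protein synthesis as they change state.

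The tract is the shared sequence feature of the family, so the starts of 4 genes are shown that differ in it and in the microglial comparison described further on. Windows run from 15 bases before to 15 bases after the start annotated by RefSeq on GRCm38.p6, 5' to 3' on the gene's strand, and capitals mark the longest pyrimidine run near the start.
Rps18 (chr17:33955651-33955680, minus strand): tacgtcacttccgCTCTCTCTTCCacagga
Rpl22 (chr4:152324421-152324450, plus strand): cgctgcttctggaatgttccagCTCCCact
Rpl22l1 (chr3:28805493-28805522, plus strand): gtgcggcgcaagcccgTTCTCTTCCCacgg
Rpl10 (chrX:74270801-74270830, plus strand): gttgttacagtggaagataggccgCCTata
Rps18 holds a run of 11 bases, Rpl22 a run of 5 and its variant Rpl22l1 a run of 10. The annotated start of Rpl10 lies beside a run of only 3. The window shown for Rpl22 lies upstream of the gene as GENCODE M21 places it, from chr4:152325742. Its run therefore need not be that of the main Rpl22 transcript. RefSeq promoters were at hand for 66 members. A run of at least 7 pyrimidines at the start was present in 32 of them, or 48.5%, against 18.8% of 27025 genes. In the window from 250 bases before to 50 after the start, both strands, the letters CCGGAAG were found in 37.9% of the members and 9.93% of all genes. GGGCGG was found in 59.1% against 38.2%, AAGATGGC in 9.09% against 3.19%, and TATAAA in 12.1% against 15.7%. These matches are a description of letters and of annotated starts, which can miss the start a cell uses.

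A second set of starts is shown because it bears on how reads can be assigned. Rps27, which encodes a zinc-binding protein of the small subunit, has a copy named Rps27rt on chromosome 9. In the windows below, running from 8 bases before to 22 bases from the start, capitals mark bases inside a stretch of 38 identical bases that both genes share.
Rps27 (chr3:90213627-90213656, minus strand): ctttcgctcCTTTCCGGCGGTGACGACCTC
Rps27rt (chr9:114982718-114982747, minus strand): atcccttgCTTTCCGGCGGTGACGACCTCC
The shared stretch opens at the first base of Rps27rt and at the next base after the start of Rps27, and the bases before it differ. Rps27rt lies 4.9 megabases from Cx3cr1, where the Cre was inserted, and 5 other members lie farther away on the same chromosome.

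Forebrain libraries held 16658700 to 22355500 gene counts each, and members took 0.929% to 1.21% of them. Atg7 itself stood at 21.2 to 27.4 CPM (counts scaled to a common library total) in the control libraries and 22.8 to 25.8 in the cKO libraries, and these ranges overlap. Counts over the whole gene from all forebrain cells do not check a deletion in microglia. Of 18 microglia marker genes fixed as a list, 12 were called lower in cKO and 0 higher, and 0 had a log2 change above 0. Their summed level ran from 1187 to 1323 CPM in the control and from 876 to 997 CPM in the cKO libraries. The list and the sum include Cx3cr1, the gene where the Cre was placed in cKO mice. Cx3cr1 ran from 59.9 to 68.3 CPM in control and from 20.8 to 28.0 CPM in cKO libraries, and the part of the knock-in in this was not tested. Summed neuron markers stood at 6515 to 6873 against 6367 to 6773 CPM, and astrocyte markers at 4658 to 4958 against 4190 to 4745 CPM. The part of these differences in the members' values was not tested. In bulk tissue, fewer cells of a type and less RNA per cell cannot be told apart.

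In forebrain, no ribosomal protein gene was called different between the genotypes. Of the 91 members, 84 passed the filter on low counts and were tested, and 0 were called higher and 0 lower by edgeR's quasi-likelihood test at a Benjamini-Hochberg adjusted p under 0.05. Of all 16956 genes tested, 0.0531% were called higher and 0.277% lower, 0.330% in either direction. The groups overlapped for all 84 members, where in 0.130% of all genes every cKO library lay above and in 0.313% below the control libraries. At an unadjusted p under 0.05 there were 0 higher (3.52% of all genes) and 1 lower (4.19%), which was Rpl12, and DESeq2 also called 0. The log2 change (cKO minus control) was above 0 for 44 and below 0 for 40, where 50.6% of all genes were above 0. Its median over the members was 0.0018, against 0.0016 over all genes tested. The change was within 0.1 of 0 for 62 members and within 0.2 for 79, and the median standard error (SE) of a member was 0.087. On simulated counts for this comparison over 16761 genes, the test called 76.0% of genes raised 1.5-fold and 77.8% of genes lowered 1.5-fold. Smaller shifts were not simulated.

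**Figure D1:**
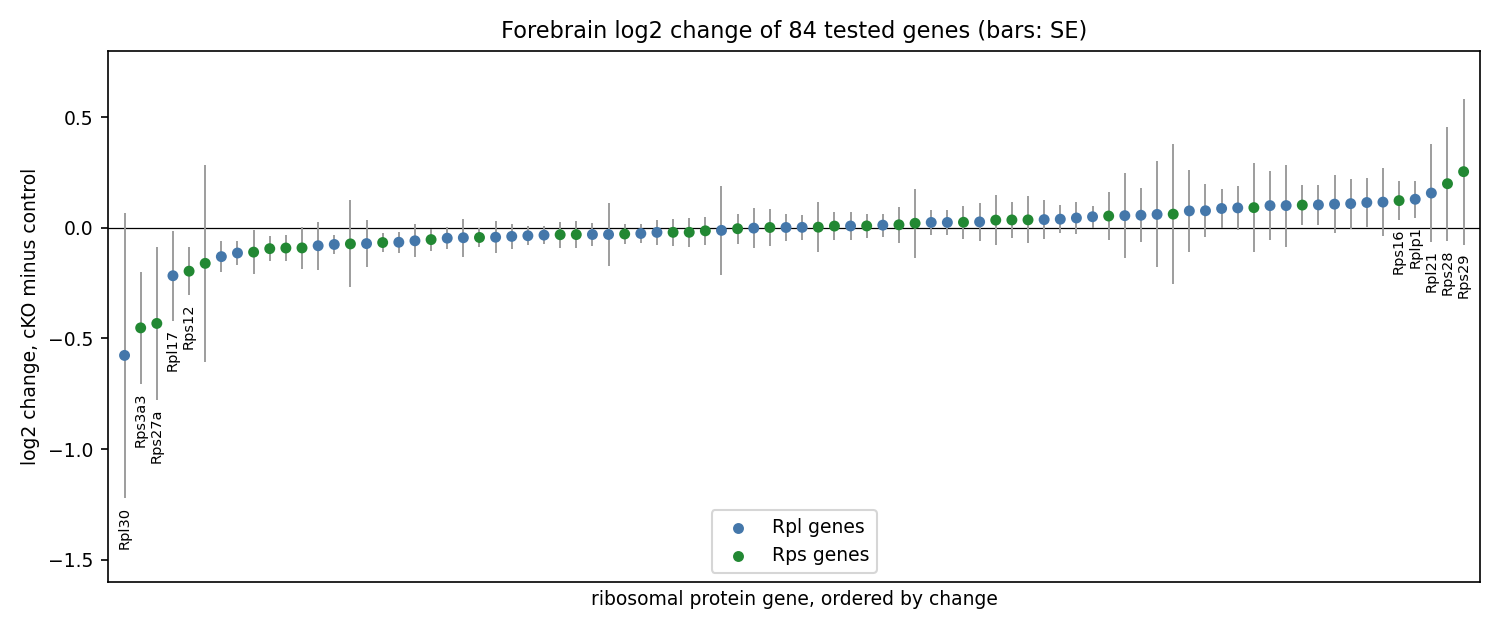
Log2 change (cKO minus control) of the 84 tested ribosomal protein genes in 5xFAD forebrain, ordered by size, with bars for the SE. Most points lie within 0.1 of 0, and the genes at both ends, Rpl30 at -0.58 and Rps29 at 0.25, have SE values of 0.65 and 0.33.

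Neither subunit stood out. The 48 tested genes of the large subunit had a median log2 change of 0.010, with 27 above and 21 below 0, and the 35 of the small subunit a median of -0.014, with 16 above and 19 below. The P stalk, where elongation factors dock, is built from Rplp0, Rplp1 and Rplp2. Rplp1 had the highest level of all tested members per length of exon in the control forebrain, at 669 CPM per kilobase, against a median of 55.8. It ran from 284 through a median of 346 to 361 CPM in the control libraries and from 313 through 355 to 449 in the cKO libraries, and its log2 change was 0.13 (SE 0.084). Rplp0 had medians of 196 and 185 CPM with a change of -0.04 (SE 0.058), and Rplp2 medians of 88.9 and 88.3 CPM with a change of 0.10 (SE 0.092). All 3 stalk genes overlapped between the groups.

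Genes of proteins with a known part outside the ribosome or at its catalytic core came next, and 0 of them were called. RPL5 and RPL11 bind the p53 regulator MDM2 when ribosome assembly fails. Rpl5 had medians of 196 CPM in control and 187 in cKO libraries (log2 change -0.07, SE 0.047), and Rpl11 118 and 114 (0.08, SE 0.12). RPL3 forms part of the peptidyl transferase region, and Rpl3 had medians of 427 CPM in both groups (-0.04, SE 0.044). RPL10 joins last on the large subunit before it can translate, and Rpl10 had medians of 204 and 190 CPM (-0.08, SE 0.045). RPS6 is the substrate of the S6 kinases downstream of mTORC1, and Rps6 had medians of 245 and 231 CPM (-0.05, SE 0.050). RPS3 lines the entry of the mRNA channel, and Rps3 had medians of 227 and 220 CPM (-0.02, SE 0.060). Each of these genes overlapped between the groups.

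The gene nearest to a call without adjustment was Rpl12, at the base of the P stalk. It ran from 137 through 144 to 151 CPM in the control and from 114 through 132 to 145 in the cKO libraries, so that the lower cKO libraries lay under every control library while the upper ones did not. Its log2 change was -0.11 (SE 0.054), and edgeR's quasi-likelihood test gave a Benjamini-Hochberg adjusted p = 0.645, the smallest among the members.

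At both ends of the order of changes stood genes with SE values of 0.084 to 0.65. Rps29, a short zinc-binding protein of the small subunit, ran from 33.3 through 80.6 to 94.2 CPM in the control and from 52.7 through 70.5 to 186 in the cKO libraries. Its log2 change of 0.25 (SE 0.33) was the highest of the members although its cKO median was the lower of the 2 medians. Rps28 (0.20, SE 0.26), Rpl21 (0.16, SE 0.22), Rplp1 and Rps16 (0.12, SE 0.089) followed. At the low end stood Rpl30 at -0.58 (SE 0.65), Rps3a3 at -0.45 (SE 0.25), Rps27a at -0.43 (SE 0.34), Rpl17 at -0.22 (SE 0.20) and Rps12 at -0.20 (SE 0.11). Rps3a3 is among the annotated pseudogenes and had 22.1 counts a library on average.

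Rpl30, which encodes a large subunit protein, showed a pattern of its own. Its values were 25.6, 28.6, 28.2, 40.1, 17.7 and 31.8 CPM in control libraries 1 to 6. In cKO libraries 1 to 7 they were 4.81, 18.4, 6.02, 4.50, 4.50, 27.4 and 68.7 CPM. The cKO libraries 1, 3, 4 and 5 lay below every other library and cKO 7 above all, so the cKO group spanned the control range on both sides. The pseudogene row Rpl30-ps10 was low in the same 4 libraries, at 0.446 to 0.769 CPM against 2.89 to 7.52 in the other 9. A gap of at least 2-fold between neighbouring ordered libraries, with at least 3 libraries on each side, occurred in 11 of 12108 genes above 5 CPM and in 1 of the 81 members scanned, which was Rpl30. That scan and its limits were chosen after these values were seen.

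**Figure D2:**
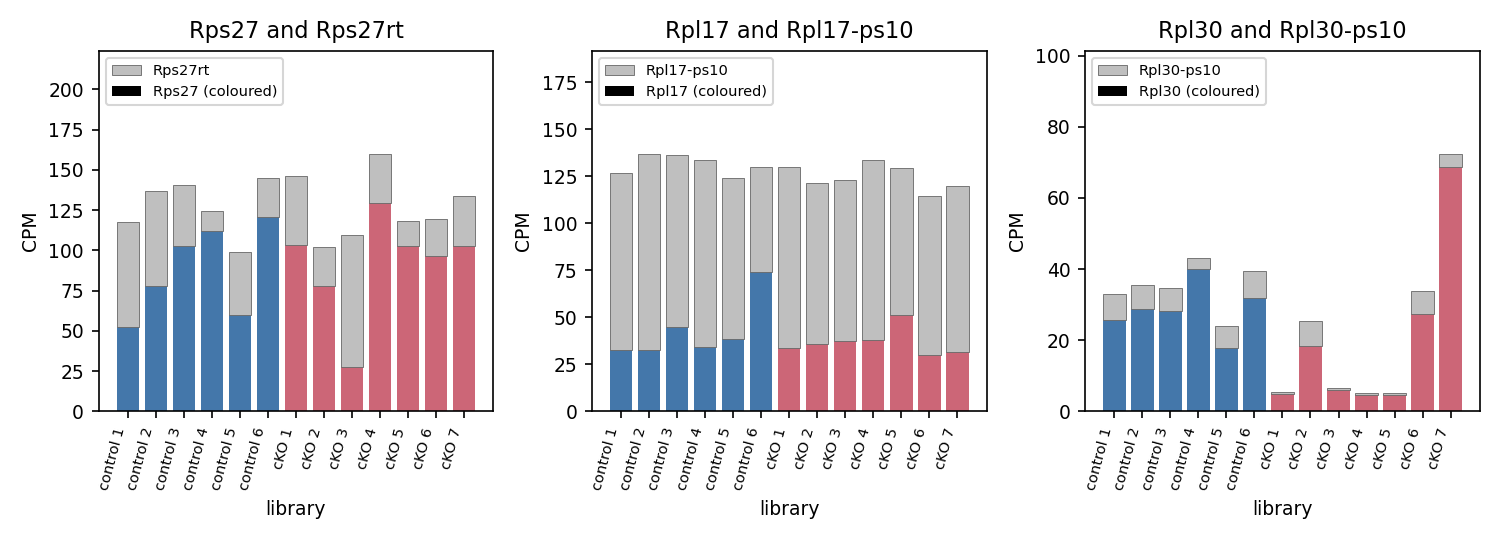
CPM of 3 members (blue in control, red in cKO libraries) with the row named as its copy or pseudogene stacked on top (grey) in each of the 13 forebrain libraries. The sum of Rpl17 and Rpl17-ps10 is nearly level while its parts vary, the sum of Rps27 and Rps27rt varies less than its parts, and Rpl30 and Rpl30-ps10 are low together in cKO 1, 3, 4 and 5.

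Several members have rows named as copies or pseudogenes of them. Where the sequences match, reads can be split between rows, so these single values are uncertain. How such reads were counted is not given in the sources used here, and beyond the stretch printed above the identity of the rows was not measured. The coefficient of variation (CV) inside the groups was 34.0% for Rps27 and 56.9% for Rps27rt, but 15.1% for their sum. In library cKO 3 Rps27 was lowest at 27.4 CPM and Rps27rt highest at 82.2 CPM. The CV was 30.1% for Rpl17, 14.3% for the row Rpl17-ps10 and 4.83% for their sum, and in control 6 Rpl17 was highest at 74.0 CPM where Rpl17-ps10 was lowest at 55.9 CPM. Rps27a, which encodes ubiquitin fused to a small subunit protein, had a CV of 45.5%, and adding Rps27a-ps2 left 44.2%. Rpl30 with Rpl30-ps10 kept a CV of 68.0%. Of the tested members, 12 of 84 had a CV above 25%, as had 2974 of all 16956 genes, and the median CV was 12.5% for members and 11.1% for all genes. The steadiest members were Rpl7 (3.97%), Rps15a (4.23%) and Rpl4 (4.25%). The 287 rows named as pseudogenes of members held counts equal to 4.58% of the members' own.

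Below 15 CPM in control forebrain and above 300 CPM in control microglia-like cells stood 4 members, by limits set after the values were seen. Rpl24 averaged 10.1 counts a library in forebrain and stood at 596 CPM in control microglia-like cells. Rpl36al averaged 4.38 counts against 386 CPM in microglia. Rps10 averaged 39.8 counts against 1141 CPM. Rpl13a was less low in forebrain, with 245 counts on average, and stood at 821 CPM in microglia. These pairs of values come from different mice, library types and counting programs. Rpl24 and Rpl36al were among the 7 members too low to test in forebrain, with Rpl3l, Rpl10l, Rpl32l, Rpl39l and Rps12l1.

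The variant genes of the family ranged widely in forebrain, and some stood above standard members. Rps27rt had medians of 38.6 CPM in control and 30.8 CPM in cKO libraries, against 12.7 and 12.3 CPM for the standard member Rpl13a. Rpl3l and Rpl10l, known as forms of striated muscle and testis, reached at most 0.509 CPM and 0 CPM in any library. Rpl39l, another form known from testis, reached at most 0.264 CPM. Rpl22l1, which can take the place of Rpl22, ran from 21.1 through 25.7 to 28.6 CPM in the control and from 21.3 through 26.4 to 34.0 in the cKO libraries, while Rpl22 had medians of 74.6 and 76.8 CPM. Rpl7l1 had medians of 43.9 and 43.1 CPM and Rps27l, a p53 target, 8.85 and 8.64 CPM. Rps4l, an annotated pseudogene, had medians of 18.7 and 17.4 CPM. Of the 9 variant genes tested, 1 was above 0 (Rpl22l1, 0.11, SE 0.11) and 8 below, with a median of -0.08 and 0 called. Rps19bp1 had a change of 0.04 (SE 0.11).

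The remaining members named by role had no calls. Log2 changes were -0.03 (SE 0.041) for Rpl7, -0.03 (SE 0.043) for the X-linked Rps4x, -0.02 (SE 0.065) for Rps26 and 0.04 (SE 0.064) for Rpl22. They were 0.09 (SE 0.089) for Rpl13a, known for its release from the ribosome after interferon-gamma, and -0.04 (SE 0.073) for Rpl29, a late-added surface protein. Rpl36a (-0.07, SE 0.11), Rpl38 (0.06, SE 0.24), Rpl39 (-0.06, SE 0.075) and Rpl41 (0.10, SE 0.16) completed the set. Rpl38 had the largest SE of these 10 genes, with a control library at 34.0 CPM where the control median was 73.6 CPM.

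Members moved together between libraries, but not by genotype. Their share of counts was 1.02% ± 0.0456 (SD, n = 6) in control and 1.03% ± 0.106 (SD, n = 7) in cKO libraries. The share was highest in cKO 5 (1.21%) and cKO 4 (1.11%) and lowest in control 5 (0.929%), cKO 6 (0.932%), cKO 7 (0.938%) and cKO 2 (0.944%), so high and low libraries fell in the same group. The median deviation of the 84 genes from their own means was 0.23 on the log2 scale in cKO 5 and -0.13 in control 5. After group means were removed, the median correlation between pairs of members was 0.439 over 13 libraries, and 85.6% of pairs were above 0. For 6352 other genes above 5 log2 CPM these values were 0.009 and 50.6%. All pairs share the same libraries and their depth, so this is a description. Rps15 (0.954) and Rps9 (0.944) were among those that followed the members' median closely, and Rpl30 (-0.632) ran against it.

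**Figure D3:**
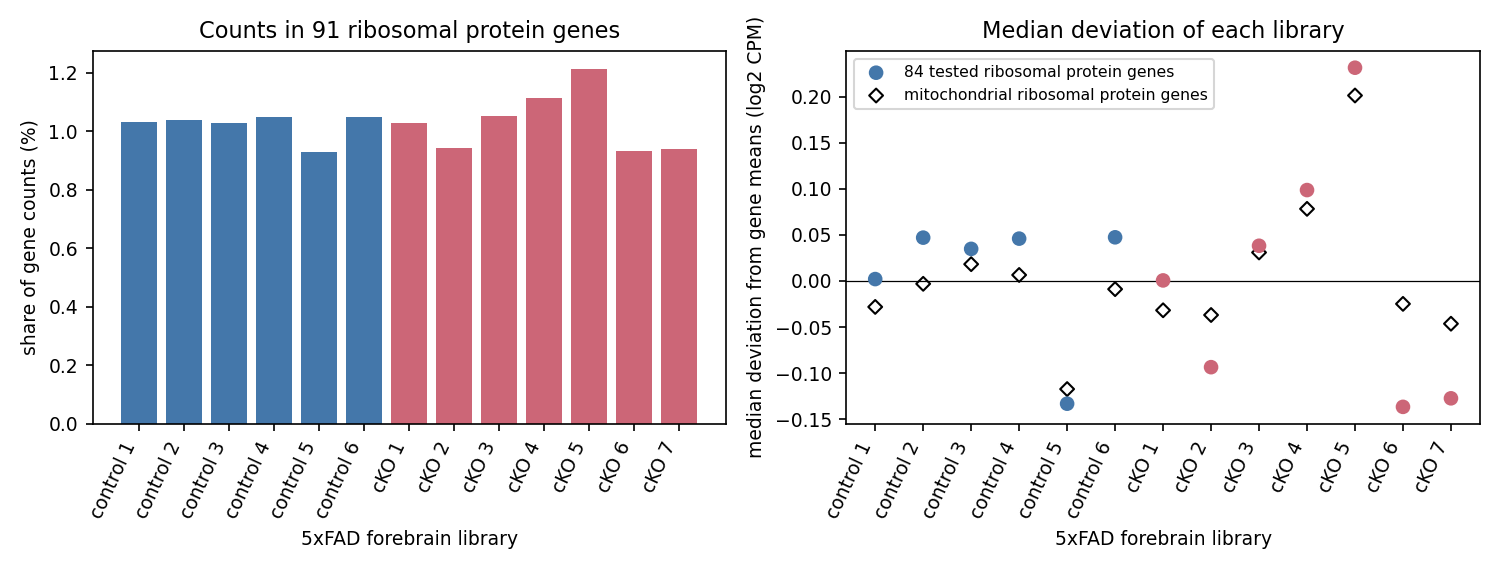
Left, percent of gene counts in the 91 members in each forebrain library (blue control, red cKO). Right, median log2 deviation of the 84 tested members (filled circles) and of mitochondrial ribosomal protein genes (diamonds) from the gene means, which is highest in cKO 5 and low in control 5 for both sets.

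Base composition and length moved with the members' level in some libraries and not in others. Over genes, the Spearman correlation between a library's deviation and GC content was 0.520 in cKO 5 and -0.477 in control 5, and with exon length -0.380 and 0.211. In cKO 6 and cKO 7, where the members deviated by -0.14 and -0.13, the correlation with GC content was 0.076 and -0.089, and in control 6, where they deviated by 0.05, it was -0.243. Over 16939 genes, the log2 change between the genotypes had a Spearman correlation of 0.367 with GC content and -0.211 with exon length. The members are short, with a median exon length of 1736.5 bases against 4121 for all genes tested. Their median GC content was 51.8% against 50%. Mitochondrial ribosomal protein genes deviated by 0.20 in cKO 5 and -0.12 in control 5, but by only -0.02 in cKO 6 and -0.05 in cKO 7. With offsets for GC content and length, the members' deviation was 0.10 in cKO 5 and -0.07 in control 5. It was -0.11 in cKO 6 and -0.07 in cKO 7. In that fit 32 of 84 members were above 0 and 0 were called. Their median log2 change was -0.0135, against 0.0024 over all genes. Without offsets and without cKO 5, 16 of 84 members were above 0 and their median was -0.04. Without control 5 instead, 30 of the 85 then tested were above 0 and the median was -0.03. The direction in which the members leaned as a set therefore depended on single libraries and on the offsets.

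The genes around the ribosome showed 0 calls in forebrain as well. Among 50 ribosome biogenesis factors 36 were above 0, with a median log2 change of 0.03, and among 77 mitochondrial ribosomal protein genes 53 were above 0, with a median of 0.05. Medians were 0.004 for 13 elongation and termination factors, -0.01 for 37 initiation factors, -0.03 for 15 genes of mTORC1 and of TOP mRNA control, and -0.009 for 14 genes of ribosome quality control and turnover. Ribosome components outside the naming rule stood at log2 changes of -0.04 for Rpsa (SE 0.043), -0.05 for Rack1 (SE 0.042) and -0.02 for Fau (SE 0.12).

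Microglia were compared through summed counts of unique molecular identifiers (UMIs) of microglia-like cells, 6205 control and 7327 cKO cells with 9056568 and 37620700 UMIs. Each genotype is 1 pooled library, so no difference could be checked on replicates and no p-value is given, and every interval below is a 95% interval for counting error only. The libraries differed in depth, with a median of 1391 UMIs per control cell and 4857 per cKO cell, and they shared 22 cell barcodes. Summed marker lists of other cells stood at 329 and 328 CPM in control and cKO cells for B cells, nearly all of it Ighm (289 and 286 CPM) and Cd79b (40.1 and 41.5 CPM), while Cd79a and Ms4a1 held at most 1 UMI in a library. Astrocyte markers summed to 163 and 177 CPM, nearly all of it Slc1a3 (162 and 174 CPM), with Gfap at 0 and 3 UMIs. Oligodendrocyte markers summed to 117 CPM in both, and endothelial markers to 58.2 and 53.7 CPM, nearly all of it Pecam1 (55.4 and 50.4 CPM), with Cldn5 at 0. Border macrophage markers summed to 5.63 and 14.2 CPM, of which Mrc1 made up 4.75 and 12.8 CPM, 2.69-fold (1.97 to 3.77), with Cd163 and Lyve1 at 0. Monocyte markers summed to 8.94 and 4.78 CPM, and markers of neurons, T and NK cells, neutrophils, mural cells, oligodendrocyte precursors, red blood cells and dividing cells to between 0 and 5.37 CPM. Their part in the members' values was not tested. Atg7 stood at 15.9 CPM in control and 17.5 CPM in cKO cells, a ratio of 1.102 (0.919 to 1.33), which checks nothing because 3' tags can lie outside the deleted part.

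In microglia most ribosomal protein genes stood slightly higher in the cKO library, at the depth each library had. Of the 84 listed members, 81 reached 20 CPM in a library and were measured, and 72 had a cKO over control ratio above 1 and 9 below, where 60.0% of 6733 measured genes were above 1. The median log2 ratio was 0.19, a ratio of 1.14, against 0.05 over all measured genes. The ratio was at least 1.1 for 52 members, where 30.7% of all genes were, and at least 1.1-fold lower for 4, where 15.5% were. At a limit of 1.5-fold, 1 member was higher (1.78% of all genes) and 0 lower (1.35%). Members took 6.52% (6.50 to 6.54, Clopper-Pearson) of control UMIs and 7.48% (7.48 to 7.49) of cKO UMIs. The median log2 ratio was 0.19 for both the 48 large subunit and the 32 small subunit genes.

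**Figure D4:**
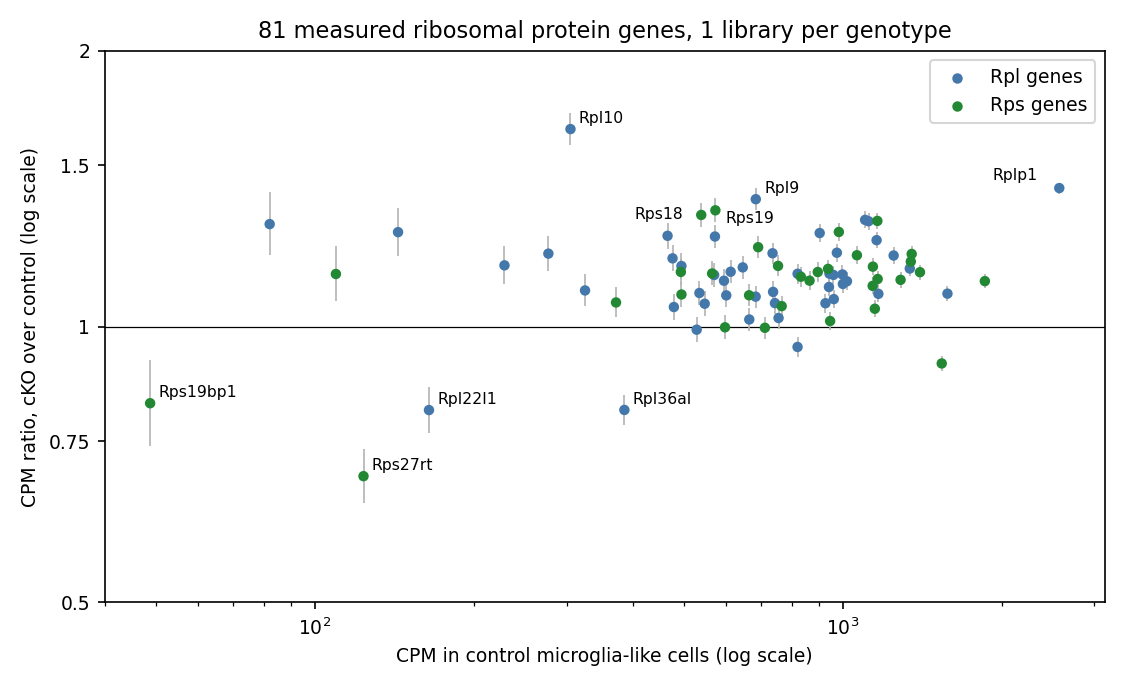
CPM ratio (cKO over control, log scale) against control CPM (log scale) for the 81 measured members in microglia-like cells, with 95% counting intervals. Most points lie between 1 and 1.3, with Rpl10 highest at 1.64 and Rps27rt lowest at 0.687.

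The lean upward changed with the depth of the cells compared. Among cells with 1000 to 3000 UMIs, 5530 control and 552 cKO cells, 70 of the 81 members were lower in cKO, the median log2 ratio was -0.15, and the members' share was 6.54% in control and 5.96% in cKO cells. Among cells with 2000 to 4000 UMIs, a limit added after the data were seen, the median was 0.02 with 48 members higher and 33 lower. Within the 3 clusters that held at least 50 cells of each library the median log2 ratio was 0.30, 0.32 and 0.23. These clusters held 5821 control and 180 cKO cells, 294 and 5528, and 53 and 88. Depth was not matched inside them. Median UMIs per cell were 1377 in control and 2483 in cKO cells, 2025.5 and 4951, and 1442 and 5240. In control cells the share hardly varied with depth, with medians from 5.99% below 1000 UMIs to 6.43% at 1500 to 2000 UMIs. In cKO cells it went from a median of 2.496% at 1000 to 1500 UMIs through 6.22% at 2000 to 3000 and 7.08% at 4000 to 6000 to 7.80% at 6000 to 10000. The best-matched bin, 2000 to 3000 UMIs, held 410 control and 368 cKO cells, and the median shares there were 6.33% and 6.22%. At 1000 to 1500 UMIs there were 3281 control and 91 cKO cells, with median shares of 6.25% and 2.496%. At 3000 to 4000 UMIs there were 83 and 1296 cells, with median shares of 6.11% and 6.49%. Among cells with at least 3000 UMIs the median log2 ratio was 0.20, with 70 members higher and 11 lower. With at least 1000 genes it was 0.19, with 74 higher and 7 lower. Depth was not matched in these 2 settings. Genotype and library cannot be told apart here.

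**Figure D5:**
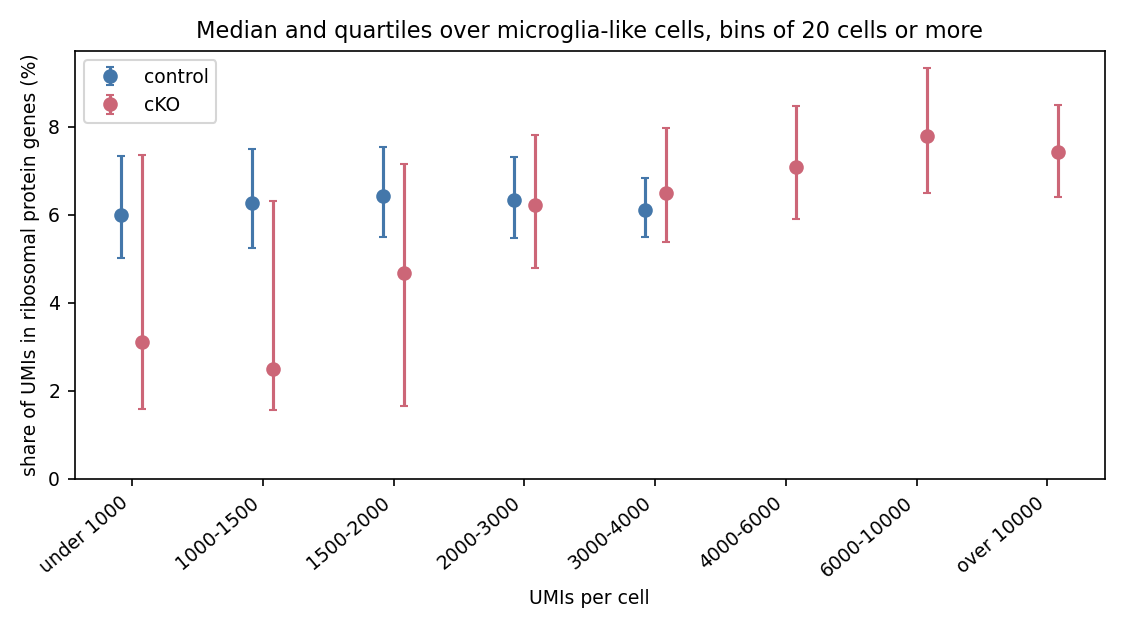
Share of each cell's UMIs in the members (median and quartiles) by UMIs per cell, for microglia-like cells of both libraries in bins of at least 20 cells. Control cells stay near 6% and cKO cells go from 2.496% at 1000 to 1500 UMIs to 7.80% at 6000 to 10000 UMIs.

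A set of cKO cells held little ribosomal protein RNA. Of all cells that passed the filters, 1467 of 8874 in the cKO library (16.5%) and 49 of 6243 in the control library (0.785%) had under 3% of their UMIs in the members, with 151 and 115 cells near that limit, between 2.5% and 3.5%. Most belonged to a cluster of 1360 cKO and 6 control cells, led by Gm26917, Dst, Gm42418 and Kcnq1ot1, which was left unnamed because its cells held 0.248 of their library's median UMIs. Members took 1.54% of its cKO UMIs, mitochondrial genes took 1.84%, and the nuclear RNA Malat1 stood at 114253 CPM, against 42305 CPM in the largest cKO cluster. At the other end, an unnamed cluster of 103 cKO and 5 control cells was led in part by members (such as Rps15a, Rps24, Rps27rt and Rps4x) and held 15.4% of its cKO UMIs in them, at a median of 1440 UMIs and with 2.98% mitochondrial UMIs. Both clusters were left out of the sums of microglia-like cells, the second at 0.328 of its library's median UMIs, although both held all 18 microglia markers. The microglia-like cells still included 156 cKO and 46 control cells under the 3% limit, at medians of 1607 and 1260.5 UMIs. With all kept cells the members' median log2 ratio was 0.14. These clusters were formed with the members among the genes used, so their shares are a description.

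Rpl10 had the highest ratio. It stood at 305 CPM in control and 501 CPM in cKO cells, 1.64-fold (1.58 to 1.71), and remained above 1 in all 10 alternative settings, from 1.26 among cells with 1000 to 3000 UMIs to 1.70 within the main control cluster. Its row lies on the X chromosome (chrX:74270812-74273135), and its annotated start is the one printed above with a run of 3 pyrimidines. In forebrain its log2 change was -0.08, as given above, with the 5xFAD transgenes present.

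Next came Rplp1, Rpl9, Rps19 and Rps18. The stalk gene Rplp1 stood at 2573 and 3644 CPM, 1.42-fold (1.40 to 1.44), and had the highest control level of all members. Rpl9 stood at 684 and 943 CPM, 1.38-fold (1.34 to 1.42). Rps19, whose loss causes Diamond-Blackfan anaemia in people, stood at 574 and 768 CPM, 1.34-fold (1.30 to 1.38), and Rps18 at 539 and 714 CPM, 1.32-fold (1.28 to 1.37). Each of these 4 stayed above 1 in all 10 settings, with lowest values of 1.11, 1.05, 1.07 and 1.13.

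The stalk genes did not move alike. Rplp2 stood at 736 and 885 CPM, 1.20-fold (1.17 to 1.23), while Rplp0 stood at 821 and 780 CPM, 0.9501-fold (0.926 to 0.975). For Rplp0 the direction turned within clusters, to 1.16, 1.15 and 1.14 in the 3 clusters with at least 50 cells of each library, and it was 0.679 among cells with 1000 to 3000 UMIs. Other genes with high levels were Rps29 (1859 CPM in control, 1.12-fold), Rpl13 (1579 CPM, 1.09-fold) and Rps24 (1401 CPM, 1.15-fold).

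At the low end stood copies and variants. Rps27rt stood at 124 and 84.8 CPM, 0.687-fold (0.641 to 0.736), and stayed below 1 in all 10 settings, from 0.499 to 0.825. Its parent Rps27 stood at 691 and 844 CPM, 1.22-fold (1.19 to 1.25), and stayed above 1 in all 10, from 1.05 to 1.31. The starts printed above share 38 bases, but the 3' tags counted here lie toward the other end of the transcript, where the pair was not compared. Rpl22l1 stood at 164 and 133 CPM, 0.811-fold (0.765 to 0.860), and was below 1 in all 10 settings, while Rpl22 stood at 535 and 582 CPM, 1.09-fold (1.05 to 1.12), and was above 1 in 8. Rpl36al stood at 386 and 313 CPM, 0.811-fold (0.781 to 0.842), below 1 in all 10, while its partner Rpl36a stood at 277 and 333 CPM, 1.20-fold (1.15 to 1.25), above 1 in 9. Of the 5 measured variants Rpl7l1 (1.29-fold) and Rps27l (1.14-fold) were higher, so low ratios were not general to variants. Rps19bp1, which is no ribosomal protein, stood at 48.7 and 40.2 CPM, 0.825-fold (0.741 to 0.919). Rpl3l and Rpl10l had 0 UMIs in both libraries, and Rpl39l 21 and 65 UMIs, under the level needed to be measured.

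Ratios of the members named by role and not given above ran from 0.998 to 1.26, against the family's median of 1.14. They were 1.14 for Rpl11, 1.14 for Rpl13a, 1.16 for Rps3, 1.16 for Rpl7, 1.15 for Rps6, 1.13 for Rps4x and 1.12 for Rps27a. Lower ones were 1.06 for Rpl5, 1.07 for Rpl39 and 1.02 for Rpl3, and higher ones 1.25 for Rpl41, 1.26 for Rpl29 and 1.16 for Rpl38. Rps26 was level at 0.998 (0.969 to 1.03). Rpl30, low in 4 forebrain libraries, stood at 1103 and 1442 CPM in microglia, 1.31-fold (1.28 to 1.34), Rpl21 at 1.30-fold, Rpl17 at 1.27-fold, Rps12 at 1.18-fold, Rps16 at 1.15-fold and Rps28 at 1.08-fold. Among cells with 1000 to 3000 UMIs, 16 of the named genes turned from above to below 1 with both intervals clear of 1, such as Rpl5 at 0.780 and Rpl22 at 0.844.

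Other genes of translation leaned less in microglia, and 0 of any list passed 1.5-fold. Of 11 measured elongation and termination factors 9 were above 1, with a median log2 ratio of 0.13, from Eef2 at 0.915 and Gspt1 at 0.965 to Eef1d at 1.15 and Eef1b2 at 1.17. Initiation factors had a median of 0.02, with the poly-A binding protein gene Pabpc1 at 0.812 and Eif5 at 0.839 below and Eif3g at 1.17 and Eif2b2 at 1.19 above. Biogenesis factors had a median of -0.03, from the nucleolar genes Nop58 at 0.770 and Ncl at 0.777 to Lyar at 1.24 and Sbds at 1.24. Mitochondrial ribosomal protein genes had a median of 0.02, from Mrps28 at 0.702 and Mrpl57 at 0.856 to Mrps17 at 1.21 and Mrps25 at 1.29. Genes of mTORC1 and TOP mRNA control had a median of 0.02, from Rheb at 0.970 and Larp4 at 0.977 to Eif4ebp2 at 1.13 and Tsc1 at 1.33. Quality control genes had a median of -0.05, from Usp10 at 0.749 and Nufip1, a ribophagy receptor gene, at 0.879 to G3bp1 at 1.14 and Rnf14 at 1.34. Ribosome components outside the naming rule stood at 0.966 for Rpsa, 0.981 for Rack1 and 1.05 for Fau, these 3 below the members' median ratio of 1.14.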

How the data were processed

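Per the submitters' processing notes, the authors aligned bulk reads to mm10 with HISAT2 2.0.5 and counted them per gene with featureCounts 1.5.0-p3, and the deposited bulk values are these raw counts. Per the labels' protocols the RNA was selected for poly-A. Per the file headers, Cell Ranger 6.1.0 produced the deposited single-cell values, which are counts of UMIs. Neither the strand setting nor the annotation release of the counting is stated in the sources used here, and overlapping or antisense genes cannot be separated for that reason. The members and gene lists were chosen with earlier results of these data known.

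In R 4.3.3, edgeR 4.0.16 was used on the bulk counts with filterByExpr and TMM scaling (robust quasi-likelihood F-test, two-sided, 6 control and 7 cKO libraries, Benjamini-Hochberg adjustment over 16956 genes). DESeq2 1.42.0 was an alternative. The test was run on simulated data first, where 7 calls were false, and it called 100.0% of genes raised 2-fold and 85.4% of genes lowered 2-fold. No library repeated another (chi-square per degree of freedom at least 2.75 within groups), and the biological coefficient of variation was 10.0%. Same-numbered libraries of the 2 groups correlated from -0.257 to 0.158, and 2 of 6 matched their own number best. So few pairs cannot exclude that the numbers mark a pairing or a batch, and a fit with a replicate block was an alternative. Lengths and GC content are from GENCODE M21 on GRCm38, and promoters from RefSeq on GRCm38.p6.

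A barcode was kept with 500 genes or more and a mitochondrial share of UMIs up to 10%, which left 6243 of 6633 in the control and 8874 of 9840 in the cKO library. No doublet caller was run. They were clustered with scanpy 1.11.5 (2000 variable genes, 30 components, 15 neighbours, resolution 0.5). A cluster was microglia-like with at least 3 microglia markers in 25% of its cells and no more leading genes of another class. A cluster was also left unnamed where its UMIs were low for its library and no microglia marker was among its 10 leading genes. This left out 2 clusters, at 0.248 and 0.328 of the library median. A cluster led by Ttr was left unnamed by a rule added after the clusters were seen. Cells were summed per library, members with at least 20 CPM in a library were measured, and intervals for shares are exact at 95%. Named members were 30 fixed by role, the 5 highest and 5 lowest changes or ratios in each data set, the 5 highest microglial levels, and from each list the 2 highest and 2 lowest ratios. Rpl12, Rpl24, Rps10, Rps15, Rps15a, Rps9, Rpl4 and the -ps rows were named after their values were seen. Cells of 2000 to 4000 and of at least 3000 UMIs were alternatives added after the data were seen. Some results are not reported here.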

Additional observations from a re-analysis of the deposited data

Results flagged for a closer look

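Of 84 group values checked (42 measures in 2 groups), 15 had a library far from the others of its group. Chance flags about 1 in 20 of independent values, so some of these may be chance. The measures are not independent, because members move together between libraries and the share sums the same genes. Flags of the same library are therefore not separate findings. In the control group, library 5 was the lowest and stood apart for Rpl11 (91.7 CPM, group median 118), Rpl13 (191.9, median 249), Rpl13a (10.7, median 12.7), Rpl36a (33.3, median 50.4), Rpl38 (34.0, median 73.6), Rps24 (168.5, median 217), Rps28 (16.5, median 31.1) and Rps29 (33.3, median 80.6), and for the members' share of counts (0.929%, median 1.03%). Control 6 stood apart as the highest for Rpl17 (74.0 CPM, median 36.4). In the cKO group, library 5 was the highest for Rpl17 (51.0 CPM, median 36.0) and Rps19 (139.9, median 98.8). Library cKO 3 was the highest for Rps27a (129.2 CPM, median 48.2) and Rps27rt (82.2, median 30.8), and cKO 7 for Rpl30 (68.7, median 6.02).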

How the results depend on the processing

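In forebrain 0 members were called under all 21 alternatives, which covered other scaling, DESeq2, no count filter, GC and length offsets, added pseudogene counts and each library left out. The members' median log2 change kept within the spread between libraries but changed sign, from -0.044 to 0.026 with single libraries left out. Their difference in share of counts (cKO minus control) was 0.0113 percentage points, and from -0.019 to 0.0281 with single libraries left out. The fit with a replicate block left out cKO 7, which has no partner; its median was 0.015 with 0 members called. Calls over all genes were 56 with all libraries, 37 without cKO 7 and 20 with the block as well. DESeq2 called 80 genes in all and the fit without a count filter 82.

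In microglia the median log2 ratio was 0.187. It was 0.199 in cells with at least 3000 UMIs and 0.193 in cells with at least 1000 genes. It became -0.153 among cells with 1000 to 3000 UMIs, 0.024 among cells with 2000 to 4000 and 0.142 with all kept cells. With median-ratio scaling it was 0.142, and within clusters 0, 1 and 3 it was 0.304, 0.324 and 0.232. The difference in share of UMIs was 0.965 percentage points. It became -0.579 among cells with 1000 to 3000 UMIs, 0.256 among cells with 2000 to 4000 and 0.738 with all kept cells. It was 1.618 and 1.556 within clusters 0 and 1, 1.113 in cells with at least 3000 UMIs and 1.076 in cells with at least 1000 genes. Among cells with 1000 to 3000 UMIs the ratio turned below 1 for Rpl5 (0.780), Rplp2 (0.835), Rpl39 (0.838), Rpl22 (0.844), Rps28 (0.845), Rpl7 (0.847), Rpl11 (0.865), Rps6 (0.867), Rpl38 (0.876), Rps29 (0.898), Rps16 (0.902), Rps3 (0.904), Rps4x (0.907), Rps24 (0.920), Rpl13 (0.922) and Rps27a (0.943), and for Rpl5 also among cells with 2000 to 4000 (0.918). Rplp0 turned above 1 within clusters 0 (1.16) and 1 (1.15). The cause was not tested, and single-cell depth limits every microglial comparison since 1 library stands for each genotype.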
